A study of Mus musculus with 8 samples.

Results

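The genes described here are the UDP-glucuronosyltransferases (Ugt genes) and the sulfotransferases (Sult genes) of mouse liver. They are the 29 rows of the deposited table, of 21358 genes in all, whose symbol starts with Ugt1a, Ugt2a, Ugt2b, Ugt3a or Sult followed by a digit, with the oestrogen sulfotransferase Sult1e1 left out. The members were 8 Ugt1a, 8 Ugt2 and 2 Ugt3a genes, 4 Sult1 genes and 7 other Sult genes, and 21 of the 29 had enough signal to be tested. RNA was sequenced from livers of 2 groups of mice, SG (labelled starvation glucose, libraries SG 101, 103, 104 and 105) and FG (labelled feeding glucose, libraries FG 93, 94, 95 and 96). All 8 libraries came after 22 weeks of every-other-day fasting, so this regimen is shared by both groups. The series title speaks of a model of metabolic dysfunction, but strain, genotype, sex, age, diet, glucose dose, batch and hour of collection are not given in the sources used here. The study asked how the liver transcriptome differs when glucose is taken in the fasted and in the fed state. The labels do not say that each library is a separate animal, so p-values describe how much these libraries varied.

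Glucuronidation and sulfation are conjugation reactions that make lipophilic molecules water-soluble for excretion in bile or urine. UDP-glucuronosyltransferases sit in the endoplasmic reticulum membrane and transfer glucuronic acid from UDP-glucuronic acid, which is made from UDP-glucose. The sulfotransferases named Sult are cytosolic and transfer sulfate from the donor PAPS. In liver both families act on bile acids, steroid and thyroid hormones, phenols and drugs, and glucuronidation also acts on bilirubin. Several genes of these families are known targets of the nuclear receptors PXR and CAR, of the dioxin receptor AHR and of the factor NRF2.

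The libraries held between 36545128 and 41977438 counted fragments, recovered from the steps of the deposited FPKM values (fragment counts scaled by gene length and library total). Genes with an FPKM of 1 or more in at least 4 libraries were tested, 9867 in all, on log2(FPKM + 1) with limma, and a gene was called at a Benjamini-Hochberg adjusted p below 0.05 over all of them. Fold changes are SG minus FG on that log2 scale. Of all tested genes 1912 (19.4%) were called, 368 higher and 1544 lower in SG, and the median of all genes was -0.14. This total was 834 without FG 93, 1102 without FG 95, 1087 without SG 103, and 1036 without SG 104 and likewise without SG 105. After median-ratio scaling between libraries the median of all genes was 0.006, with 545 genes called higher and 499 lower, so the excess of lower calls depended on the scaling. The hepatocyte marker Alb was at 41909 ± 5999 FPKM in SG and 41490.4 ± 3195 FPKM in FG (SD, n = 4 each). It does not stand for its list of 10 hepatocyte markers, all tested. Of these, 3 were called higher in SG, against 3.73% of all tested genes, and 0 lower. The groups did not overlap for 4 of the 10, all higher in SG, and 9 of the 10 fold changes were positive. Summed endothelial markers were lower in SG without overlap (61.5 to 74.3 FPKM in SG, 81.7 to 101 FPKM in FG), but the 1 called of the 6 genes, Clec4g, carried much of the sum, and the other 5 overlapped (29.1 to 42.0 FPKM in SG, 34.0 to 43.8 FPKM in FG). Likewise lower in SG were summed biliary markers (13.0 to 19.1 FPKM in SG, 21.9 to 27.7 FPKM in FG), of which 2 of 6 genes were tested and Spp1 was called, and the 5 genes other than Spp1 overlapped (1.77 to 3.18 FPKM in SG, 2.75 to 11.8 FPKM in FG). Clec4g and Spp1 are named here after their values were seen. No gene of either list was at 0 in every library, and their part in the results below was not tested.

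Of the 21 tested members, 7 (33.3%) were called, against 19.4% of all tested genes. Sult1a1, Sult1b1 and Sult5a1 rose in SG, 3 of 21 members against 3.73% of all tested genes called higher. Ugt2b36, Ugt2b5, Ugt1a6a and Sult1c2 fell in SG, 4 of 21 members against 15.6% of all tested genes called lower. The groups did not overlap for 3 members higher in SG, against 4.35% of all tested genes, and for 5 members lower in SG, against 21.8% of all tested genes. The lower ones were the 4 called members and Ugt2b35, which was not called. After median-ratio scaling the same counts of 3 higher and 4 lower members stood against 5.52% and 5.06% of all tested genes. By family, the calls among 14 tested Ugt genes were 0 higher and 3 lower with a median fold change of -0.38, and those among 7 tested Sult genes were 3 higher and 1 lower with a median of 1.04. Whether the families differ from each other or from other genes was not tested. In a bulk liver sample, fewer cells of a type and less RNA per cell cannot be told apart, and this holds for every difference below.

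**Figure D1:**
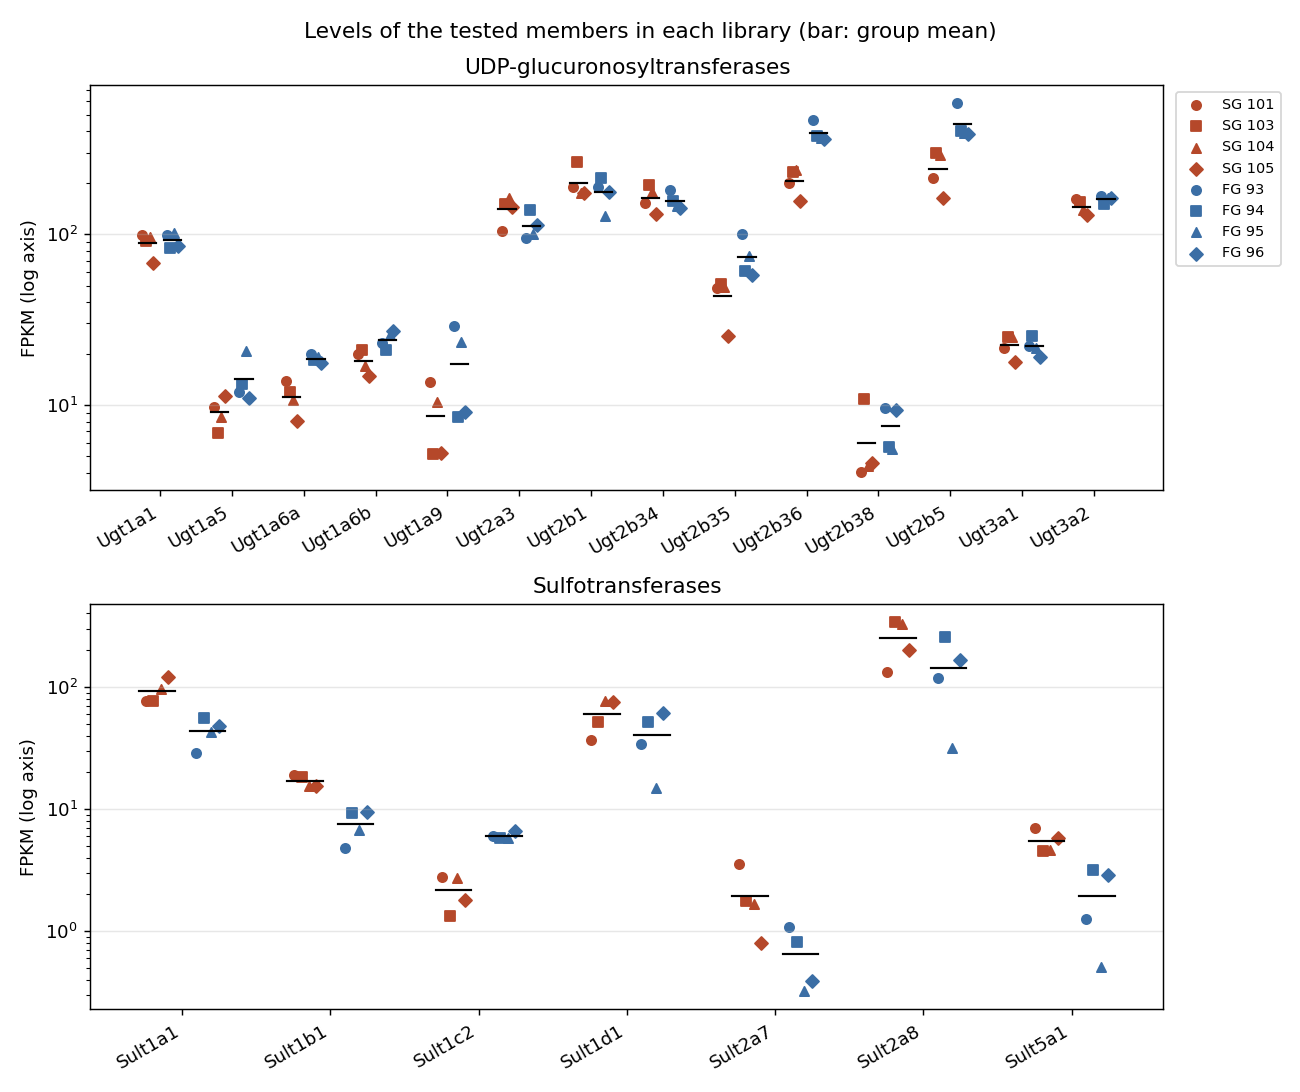
FPKM of the 21 tested members in each library on a log axis, Ugt genes above and Sult genes below, with SG libraries in red left of FG libraries in blue and a bar at each group mean. Ugt2b36 and Ugt2b5 lie lower in all SG libraries than in any FG library, Sult1a1, Sult1b1 and Sult5a1 lie higher, and Sult1c2 and Ugt1a6a lie lower.

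**Figure D2:**
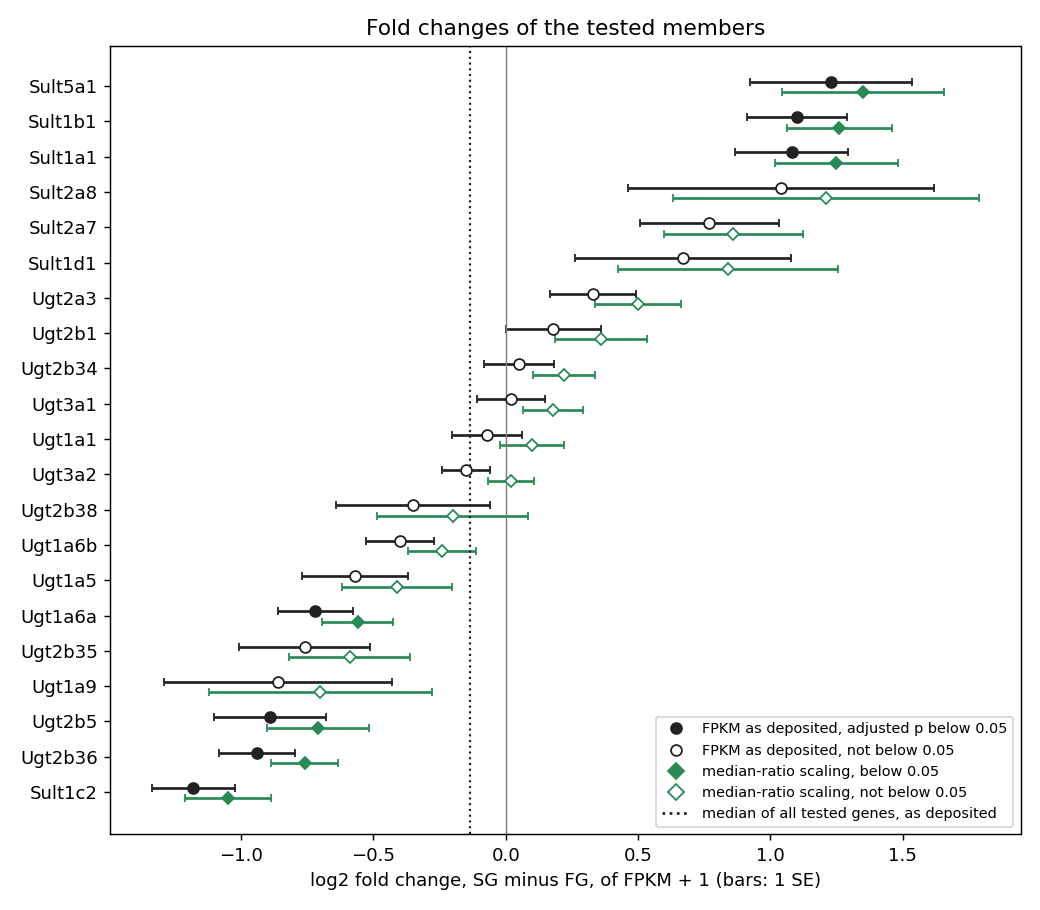
Log2 fold change of FPKM + 1, SG minus FG, with 1 SE for the 21 tested members, ordered by size. Black circles use FPKM as deposited, green diamonds use FPKM after median-ratio scaling, filled symbols mark an adjusted p below 0.05 and the dotted line is the median of all tested genes, -0.14. The scaling moves every member to the right, and the 7 filled members are the same in both.

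Ugt2 enzymes are known for steroids, bile acids and drugs such as opioids. Ugt2b5 and Ugt2b36 were the most abundant members by mean FPKM over all libraries, and both were lower in SG, with an FG mean 1.83 times the SG mean for Ugt2b5 and 1.90 times for Ugt2b36. Ugt2b36 was at 200.1, 229.6, 237 and 156 FPKM in SG 101, 103, 104 and 105, against 465, 376, 366 and 361 FPKM in FG 93, 94, 95 and 96. Every SG library was lower than every FG library, with a fold change of -0.94 (SE 0.145, adjusted p = 0.00541, exact two-sided permutation p = 0.0286, the smallest that 4 against 4 allows). Ugt2b5 was at 213, 297, 289 and 162 FPKM in the SG libraries, against 582, 399, 389 and 387 FPKM in the FG libraries. The groups again did not overlap, and the fold change was -0.89 (SE 0.212, adjusted p = 0.0223). FG 93 was far above the other FG libraries for this gene. Without FG 93 the fold change was -0.74 (SE 0.205) and the call for Ugt2b5 was lost (adjusted p = 0.0605), in a fit where calls over all genes fell from 1912 to 834. The call was also lost with no filter on low values (adjusted p = 0.0684).

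Ugt2b35 was at 48.6, 51.1, 48.8 and 25.2 FPKM in the SG libraries, against 100.3, 60.8, 74.2 and 57.6 FPKM in the FG libraries. No SG library reached the lowest FG library, but the adjusted p was 0.0606 with a fold change of -0.76 (SE 0.248). Ugt2b34, at one end of the gene cluster, was at 131 to 193 FPKM in SG and 142 to 181 FPKM in FG, with a fold change of 0.05 (SE 0.134, adjusted p = 0.816). Ugt2b1 was at 174 to 263 FPKM in SG and 128 to 212 FPKM in FG, and its fold change of 0.18 had an adjusted p of 0.499. These abundant genes of the cluster thus overlapped between the groups. Ugt2a3, whose human counterpart is known to glucuronidate bile acids, was at 105, 151, 162 and 144 FPKM in the SG libraries, against 94.5, 139, 99.9 and 113 FPKM in the FG libraries. Its fold change of 0.33 was not called (adjusted p = 0.177), but without SG 101, the lowest SG library for this gene, it was 0.46 with an adjusted p of 0.0407. Ugt2b38 was a minor member, at 4.05, 10.9, 4.37 and 4.55 FPKM in the SG libraries, against 9.63, 5.67, 5.51 and 9.36 FPKM in the FG libraries. SG 103 stood above every FG library while the other SG libraries stood below them all, and the fold change of -0.35 was not called (adjusted p = 0.415). Without SG 103 the fold change of Ugt2b38 was -0.64 (SE 0.2) and was still not called (adjusted p = 0.071).

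Because library scaling cancels in a ratio, the Ugt2 genes were also set against each other within each library, using pairs chosen after their values were seen. The ratio of Ugt2b36 to Ugt2b34 was 1.32, 1.19, 1.34 and 1.19 in the SG libraries, against 2.56, 2.40, 2.51 and 2.53 in the FG libraries. The spread inside each group was small beside the distance between the groups. The ratio of Ugt2b5 to Ugt2b36 was 1.04 to 1.295 in SG and 1.06 to 1.25 in FG, so these genes kept a similar proportion to each other in both groups. The ratio of Ugt2b36 to Ugt2b38 also overlapped, at 21.1 to 54.3 in SG and 38.5 to 66.4 in FG. Ugt2b5 and Ugt2b36 together made up 44.4 ± 3.45% of the summed Ugt2 FPKM in SG and 61.1 ± 3.07% in FG (SD, n = 4 each). The Ugt2 sum itself was 797 to 1196 FPKM in SG and 1208 to 1622 FPKM in FG, without overlap.

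**Figure D3:**
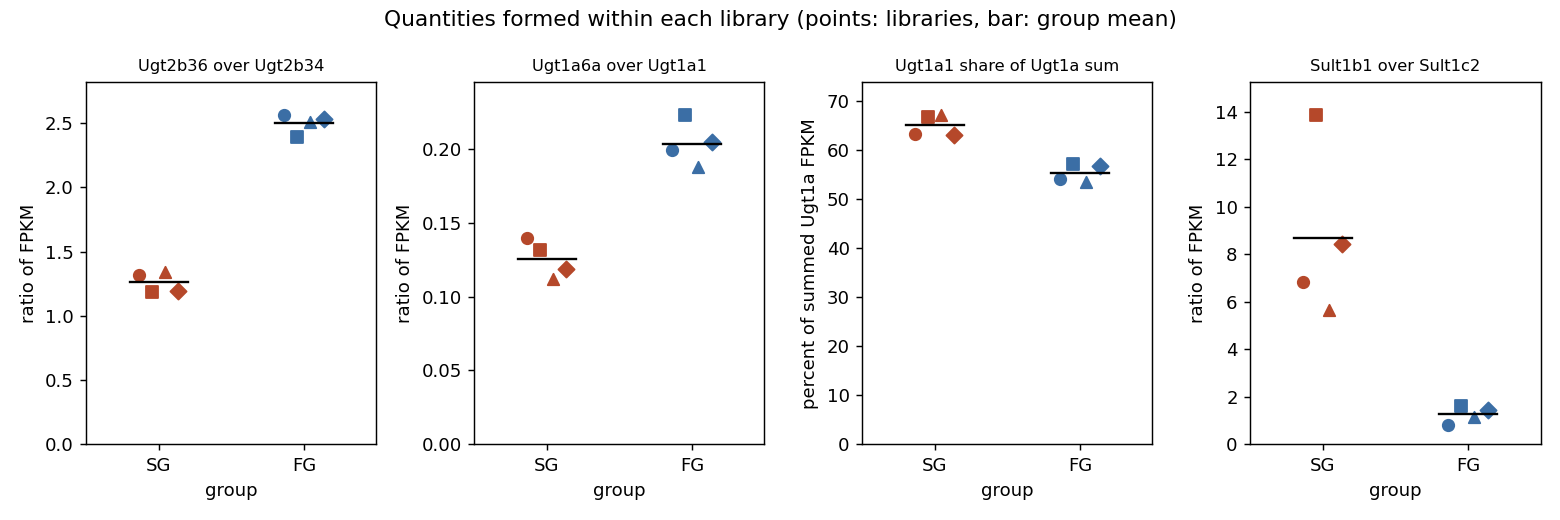
Ratios and shares of FPKM formed within each library, SG left of FG, 1 point per library and a bar at the group mean. From left to right are Ugt2b36 over Ugt2b34, Ugt1a6a over Ugt1a1, the percent of the summed Ugt1a FPKM that was Ugt1a1, and Sult1b1 over Sult1c2. The quantities shown were picked after the values of the genes were seen. No SG library overlaps an FG library in any of them, which for Sult1b1 over Sult1c2 follows from the values of each gene.

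The 8 Ugt2 genes, Sult1b1 and Sult1d1 lie in one stretch of chromosome 5, chr5:86889770-87569006 in build GRCm38, which spans 679.2 kb. Sorted by position, Ugt2b34 and Ugt2b1 did not pass the test, Ugt2b35, Ugt2b36 and Ugt2b5 followed with fold changes of -0.76, -0.94 and -0.89, of which that of Ugt2b35 was not called. Beyond them Ugt2b37 was not tested, and Ugt2a3 and Ugt2b38 did not pass. Sult1b1 and Sult1d1 at the far end had fold changes of 1.10 and 0.67, of which that of Sult1b1 was called. Members of one cluster therefore moved in opposite directions. By global alignment of 1 transcript per gene, Ugt2b36 shared 88.0% of aligned bases with Ugt2b5, 86.9% with Ugt2b35, 87.0% with the uncalled Ugt2b38 and 86.2% with the untested Ugt2b37, against 75.2% with Ugt2b34, 77.4% with Ugt2b1 and 76.1% with Ugt2a3. Likeness in sequence thus did not separate called from uncalled genes. The uncalled Ugt2b35 and Ugt2b38 had negative fold changes too (-0.76 and -0.35). Ugt2b38 was 95.7% identical to Ugt2b5, and 19.5% of the 150-base windows of Ugt2b5 occurred unchanged in the Ugt2b38 transcript, so fragments of these genes may have been exchanged. No 150-base window of Ugt2b34, Ugt2b1, Ugt2b35, Ugt2b36 or Ugt2a3 occurred in another gene.

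**Figure D4:**
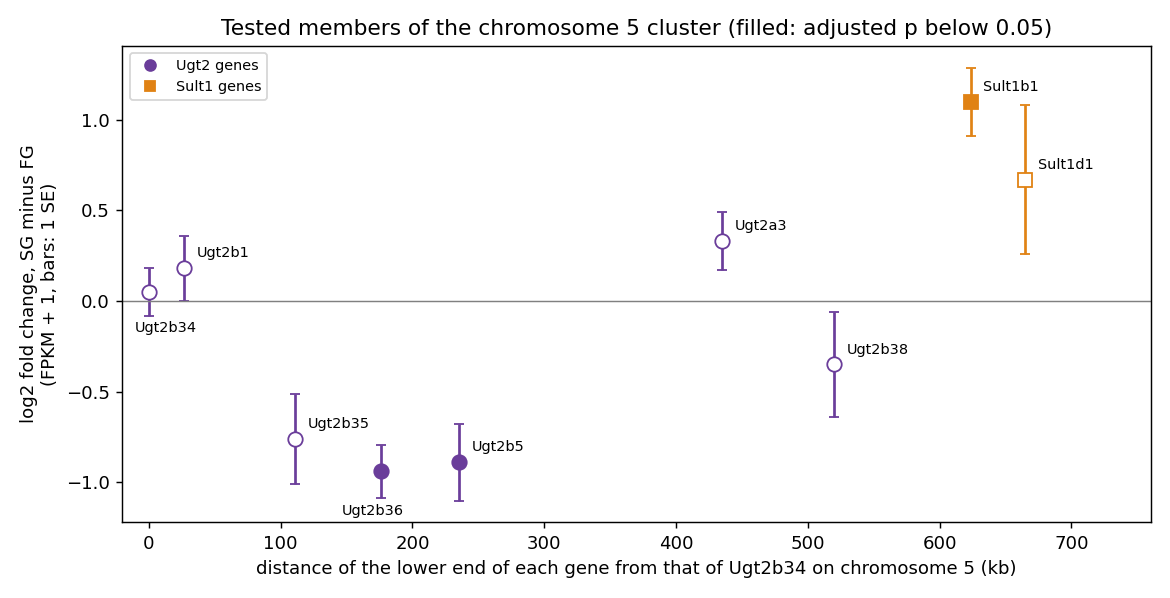
Log2 fold change of FPKM + 1, SG minus FG, with 1 SE, against the distance in kb of each gene from Ugt2b34 along chromosome 5, for the 9 tested members there. Purple circles are Ugt2 genes, orange squares Sult1 genes, and filled symbols mark an adjusted p below 0.05. Ugt2b35, Ugt2b36 and Ugt2b5 lie side by side below 0, and Sult1b1 and Sult1d1 lie above 0.

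The sequence upstream of each Ugt2 start is shown because it lets the genes that fell be compared with neighbours that did not pass the test. The lines give the 100 bases before the start, 5′ to 3′ on the strand of the gene, from RefSeq promoter windows of GRCm38.p6, of which 24 of the 29 members have one. The places are chr5:87092556-87092655 (minus strand) for Ugt2b36, chr5:87140341-87140440 (minus) for Ugt2b5, chr5:87000760-87000859 (plus) for Ugt2b35, chr5:87424204-87424303 (minus) for Ugt2b38, chr5:87254789-87254888 (minus) for Ugt2b37, chr5:86906938-86907037 (minus) for Ugt2b34, chr5:86926504-86926603 (minus) for Ugt2b1 and chr5:87337196-87337295 (minus) for Ugt2a3. Capitals mark GTTA and TTAAC separated by 4 bases, the letters of a palindrome like that bound by the liver factor HNF1, and, in the lines of Ugt2b36, Ugt2b5, Ugt2b38 and Ugt2b37, a further run of 22 bases that these 4 genes share. The Ugt2a3 line holds neither.
Ugt2b36: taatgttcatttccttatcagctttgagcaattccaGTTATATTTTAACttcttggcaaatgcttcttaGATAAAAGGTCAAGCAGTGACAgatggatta
Ugt2b5: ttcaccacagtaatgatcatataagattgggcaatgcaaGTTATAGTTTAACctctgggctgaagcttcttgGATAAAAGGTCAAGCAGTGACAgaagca
Ugt2b35: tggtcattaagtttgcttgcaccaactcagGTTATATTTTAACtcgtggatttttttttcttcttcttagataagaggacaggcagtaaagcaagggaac
Ugt2b38: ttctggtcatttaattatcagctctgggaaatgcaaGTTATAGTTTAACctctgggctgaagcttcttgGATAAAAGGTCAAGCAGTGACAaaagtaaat
Ugt2b37: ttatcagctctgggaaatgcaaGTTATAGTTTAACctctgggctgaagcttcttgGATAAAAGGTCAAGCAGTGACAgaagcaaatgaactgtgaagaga
Ugt2b34: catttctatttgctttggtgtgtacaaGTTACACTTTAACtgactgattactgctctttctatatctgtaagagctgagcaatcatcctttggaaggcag
Ugt2b1: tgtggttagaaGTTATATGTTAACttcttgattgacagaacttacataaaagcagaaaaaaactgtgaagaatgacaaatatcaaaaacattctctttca
Ugt2a3: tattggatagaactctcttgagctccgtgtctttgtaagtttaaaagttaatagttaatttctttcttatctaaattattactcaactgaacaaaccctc

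The palindrome, searched on both strands over 250 bases upstream, was found in 7 of the 8 Ugt2 windows, Ugt2a3 being the exception, and in 56 (0.17%) of the 32851 windows of all genes. It was thus present before Ugt2b36 and Ugt2b5, which fell, and before Ugt2b34 and Ugt2b1, which did not pass the test. The shared run of 22 bases was found in 4 windows in all (0.0122%), those of Ugt2b5, Ugt2b36, Ugt2b37 and Ugt2b38. It starts 31 bases before the start of Ugt2b36 and 28 before that of Ugt2b5, and it contains AGGTCA, a core sequence read by many nuclear receptors, which on either strand occurs in 14.0% of all windows and in 5 of the 8 Ugt2 windows. Ugt2b38 holds the same run as Ugt2b36 and was not called, so the run does not separate called from uncalled genes. This rests on Ugt2b38 alone, since Ugt2b37 was not tested. Without SG 103 the fold change of Ugt2b38 was -0.64 (adjusted p = 0.071). The motifs were chosen after the sequences were seen, and a match is a description of letters and not of binding.

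The Ugt1a genes lie on chromosome 1 (chr1:88055411-88220002, GRCm38), where each gene has its own first exon and promoter joined to common last exons. All 5 tested Ugt1a members had a negative fold change, with a median of -0.57, while 69.9% of all tested genes were negative, and 1 of 5 was called, against 19.4% of all tested genes. After median-ratio scaling Ugt1a1 was positive at 0.10, and 48.9% of all tested genes were negative. Ugt1a6a, known for small planar phenols, was at 13.8, 11.97, 10.7 and 8.04 FPKM in the SG libraries, against 19.7, 18.4, 19.1 and 17.5 FPKM in the FG libraries. It fell in SG with a fold change of -0.72 (SE 0.142, adjusted p = 0.012), and no SG library reached the FG range. Ugt1a6b, whose transcript is 98.9% identical to that of Ugt1a6a, was at 19.8, 21.0, 16.9 and 14.7 FPKM in the SG libraries, against 22.9, 21.0, 25.7 and 26.9 FPKM in the FG libraries. SG 103 and FG 94 touched at the same level, and the fold change of -0.40 was not called (adjusted p = 0.0547) but was -0.45 with an adjusted p of 0.0466 without SG 101. The adjusted p reached 0.127 in other fits without 1 library. After median-ratio scaling the fold change of Ugt1a6b was -0.24 (adjusted p = 0.265). How fragments were divided between these near-identical genes is uncertain.

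Ugt1a1, the bilirubin enzyme and the most abundant Ugt1a gene, was at 98.3, 90.9, 95.5 and 67.7 FPKM in the SG libraries, against 99.2, 82.4, 102 and 85.3 FPKM in the FG libraries. The groups overlapped, and the fold change was -0.07 (SE 0.133, adjusted p = 0.72). Ugt1a5 was at 6.88 to 11.3 FPKM in SG and 10.9 to 20.6 FPKM in FG, with a fold change of -0.57 that was not called (adjusted p = 0.076). Ugt1a9, known for bulkier phenols, was at 13.5, 5.19, 10.4 and 5.22 FPKM in the SG libraries, against 28.9, 8.50, 23.3 and 9.06 FPKM in the FG libraries. FG 93 and FG 95 stood well above the other libraries, and with this spread the fold change of -0.86 had an SE of 0.431 and an adjusted p of 0.185.

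Shares and ratios within libraries were again chosen after the values were seen. Ugt1a1 made up 65.1 ± 2.16% of the summed Ugt1a FPKM in SG and 55.4 ± 1.90% in FG (SD, n = 4 each), with no overlap. The ratio of Ugt1a6a to Ugt1a1 was 0.112 to 0.140 in SG and 0.187 to 0.223 in FG, also without overlap. Ugt1a6a plus Ugt1a6b made up 19.4% to 24.2% of the Ugt1a sum in SG and 23.3% to 29.6% in FG, and here the groups overlapped. Even this sum depends in part on how fragments were divided between the genes, since their recovered lengths differ (3302 bases for Ugt1a6a, 2293 for Ugt1a6b). In the GENCODE annotation of this build, 50.3% to 82.7% of the exonic bases of an Ugt1a member lie in exons of other genes. The deposited values do not count shared exons for every gene, since in SG 103 Ugt1a7c had 1 fragment while Ugt1a1 had 10721. Differences between Ugt1a genes therefore depend on a counting rule that the sources used here do not state.

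The bases before the starts of 4 tested Ugt1a genes are shown to set the called gene beside uncalled ones of the locus. All are on the plus strand of GRCm38.p6, at chr1:88134709-88134808 for Ugt1a6a, chr1:88211859-88211958 for Ugt1a1, chr1:88165912-88166011 for Ugt1a5 and chr1:88070679-88070778 for Ugt1a9. Capitals mark GTTAAT or its complement ATTAAC, one arm of the HNF1 palindrome, which occurs within 250 bases upstream in 6.43% of all windows and in 4 of 7 Ugt1a windows.
Ugt1a6a: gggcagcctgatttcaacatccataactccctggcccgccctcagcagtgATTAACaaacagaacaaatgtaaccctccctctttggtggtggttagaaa
Ugt1a1: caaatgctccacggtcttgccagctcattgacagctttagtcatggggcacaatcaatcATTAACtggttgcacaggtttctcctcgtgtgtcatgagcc
Ugt1a5: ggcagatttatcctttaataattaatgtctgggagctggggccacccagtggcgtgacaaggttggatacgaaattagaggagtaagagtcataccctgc
Ugt1a9: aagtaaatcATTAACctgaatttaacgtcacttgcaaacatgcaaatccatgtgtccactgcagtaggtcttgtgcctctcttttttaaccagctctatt

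These letters stand 50 bases before the start of Ugt1a6a, which fell, and 41 bases before that of Ugt1a1, which did not pass the test. They are not in the Ugt1a5 line, and they lie 91 bases before the start of Ugt1a9.

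Ugt3a1 and Ugt3a2, on chromosome 15, are known from human enzymes to use other sugars than glucuronic acid. Ugt3a2 was the more abundant, at 129 to 159.6 FPKM in SG and 149 to 168 FPKM in FG, with a fold change of -0.15 (SE 0.0908, adjusted p = 0.269) that was 0.02 after median-ratio scaling. Ugt3a1 was at 17.9 to 25.0 FPKM in SG and 19.1 to 25.2 FPKM in FG, with a fold change of 0.02 (SE 0.127, adjusted p = 0.937). The groups overlapped for both genes.

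Among the Sult1 genes, which act mainly on phenols, 2 rose and 1 fell. Sult1a1, the main phenol sulfotransferase, was at 76.3, 77.4, 96.4 and 121 FPKM in SG 101, 103, 104 and 105, against 28.6, 55.8, 42.6 and 48.2 FPKM in FG 93, 94, 95 and 96. Every SG library was higher than every FG library, the ratio of means was 2.12, and the fold change was 1.08 (SE 0.214, adjusted p = 0.0124). Sult1b1, known for thyroid hormones and other phenols, was at 19.1, 18.4, 15.3 and 15.3 FPKM in the SG libraries, against 4.83, 9.35, 6.74 and 9.54 FPKM in the FG libraries. It rose in SG with a ratio of means of 2.24 and a fold change of 1.10 (SE 0.188, adjusted p = 0.00748), and all SG libraries stood above the FG range. Sult1c2, known from its human and rat counterparts for small phenols and hydroxylamines, was at 2.80, 1.33, 2.71 and 1.82 FPKM in the SG libraries, against 6.07, 5.76, 5.81 and 6.57 FPKM in the FG libraries. It fell in SG with the smallest adjusted p of the members (fold change -1.18, SE 0.158, adjusted p = 0.0031). The FG libraries were close to each other, with an SD of 0.371 FPKM, and lay above all SG libraries. The lowest library, SG 103, held 71 fragments of Sult1c2.

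Sult1d1, known in mouse for catecholamines, was at 36.6, 52.0, 76.6 and 75.6 FPKM in the SG libraries, against 34.0, 52.0, 14.996 and 60.9 FPKM in the FG libraries. The groups overlapped and the fold change of 0.67 was not called (adjusted p = 0.271). The ratio of Sult1b1 to Sult1c2 within a library, a pair chosen after their values were seen, was 6.83, 13.9, 5.66 and 8.45 in the SG libraries, against 0.796, 1.62, 1.16 and 1.45 in the FG libraries. Since each gene was apart between the groups, in opposite directions, this ratio could not overlap. The Sult1 sum was 135 to 214 FPKM in SG and 70.2 to 125 FPKM in FG, without overlap, and most of it was Sult1a1 and Sult1d1.

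Of the other Sult genes, Sult2a8, known as a bile acid sulfotransferase of mouse liver, was the most abundant. It was at 132, 339, 326 and 201 FPKM in the SG libraries, against 119, 255, 31.7 and 166 FPKM in the FG libraries. The libraries of each group differed so widely that a fold change of 1.04 had an SE of 0.578 and an adjusted p of 0.23. SG 101 and FG 95 were the lowest libraries of their groups for Sult2a8. They were also the lowest of their groups for Sult1d1. Sult2a7, which lies beside Sult2a8 on chromosome 7, was near the limit for testing at 3.52, 1.76, 1.67 and 0.797 FPKM in the SG libraries, against 1.09, 0.814, 0.324 and 0.391 FPKM in the FG libraries. It reached 1 FPKM in 3 SG libraries and 1 FG library, with 15 to 152 fragments, and its fold change of 0.77 was not called (adjusted p = 0.068) but was 0.98 with an adjusted p of 0.0368 without SG 105.

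Sult5a1, a little studied sulfotransferase on chromosome 8, was at 6.94, 4.51, 4.59 and 5.84 FPKM in the SG libraries, against 1.26, 3.16, 0.512 and 2.89 FPKM in the FG libraries. It rose in SG without overlap (fold change 1.23, SE 0.305, adjusted p = 0.0252). The call was lost without FG 93 (adjusted p = 0.0742), without SG 105 (adjusted p = 0.0634) and when genes with low values were kept in the fit (adjusted p = 0.0766).

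The other 8 members had too little signal to be tested. Ugt2b37 came nearest, with 2.10 FPKM in FG 93 and less than 1 FPKM in the other 7 libraries. Ugt1a7c peaked at 0.384 FPKM, with 1 to 6 fragments in SG and 10 to 50 fragments in FG, and Ugt1a10 at 0.189 FPKM, with 11 to 24 fragments in SG and 2 to 10 fragments in FG. Both were without overlap, in opposite directions. Ugt1a2 reached 0.264 FPKM, and Sult2a2, Sult2b1, Sult3a1 and Sult4a1 stayed at or below 0.0706 FPKM. Sult3a1 and Sult2a2 are known in mouse as higher in female liver.

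FG 93 and FG 95 ranked together at one end of the FG group for some members. They were the lowest pair of the FG group for 6 of the 21 tested members, Sult1a1, Sult1b1, Sult1d1, Sult2a8, Sult5a1 and Ugt2a3, against 16.0% of all tested genes. They were the highest pair for 5 of 21, Ugt1a1, Ugt1a6a, Ugt1a9, Ugt2b35 and Ugt3a2, a lower share than the 30.1% of all tested genes. These are ranks, and the distance could be small, as for Ugt3a2 (163 FPKM in FG 95, 162 FPKM in FG 96). The sum of 12 genes known as higher in female liver was 17.1 to 63.4 FPKM in the SG libraries, against 346, 60.4, 377 and 36.8 FPKM in FG 93, 94, 95 and 96. Cyp2a4 (219 FPKM in FG 93 and 239 FPKM in FG 95, named after its values were seen) and Cyp2b9 carried this, and the other 10 genes overlapped, at 16.4 to 62.4 FPKM in SG and 17.1 to 54.9 FPKM in FG. Of that list 5 of 12 genes were tested and 1 was called, against 19.4% of all tested genes. The called gene was Cyp2b9, at 0.0496 to 0.355 FPKM in SG and 18.4 to 84.1 FPKM in FG (adjusted p = 0.000433). Genes known as higher in male liver summed to 7445 to 10973 FPKM in SG and 1982 to 3572 FPKM in FG. Serpina1e carried much of this sum, at 4139 to 5679 FPKM in SG and 238 to 849 FPKM in FG. Of the 13 genes, all tested, 4 were called higher, against 3.73% of all tested genes. These were Selenbp2, Serpina1e, Susd4 and Elovl3, the only genes of the list without overlap. Nudt7, named after its value was seen, was called lower, and 12 of 13 fold changes were positive. The Y-linked gene Kdm5d was detected in all libraries (2.58 to 3.32 FPKM in SG, 1.68 to 3.02 FPKM in FG), and Xist did not pass 0.00891 FPKM. The part of this pattern in the differences between SG and FG was not tested. Sult1a1, Sult1b1, Sult1c2, Ugt1a6a and Ugt2b36 were called in every fit that left out 1 library. No fit left out FG 93 and FG 95 together, so these fits do not show how the calls depend on that pair.

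Markers of liver zones were read the same way. Periportal hepatocyte markers summed to 6493 to 10694 FPKM in SG and 3366 to 5440 FPKM in FG, with 5 of 10 called higher. Pericentral markers summed to 3823 to 7134 FPKM in SG and 4510 to 5341 FPKM in FG, with 1 of 10 called higher. Of all tested genes 3.73% were called higher. The pericentral fold changes split into 5 positive and 5 negative. Genes named after their values were seen are Oat, called higher, and Cyp2e1, which carried most of the sum. So is Glul, which was lower in SG without overlap (219 to 449 FPKM in SG, 459 to 566 FPKM in FG) and not called (adjusted p = 0.11). Their part in the members' differences was not tested.

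The genes that supply the cosubstrates were read from a list of 12, all tested, of which 1 was called higher and 3 lower. Of all tested genes 3.73% were called higher and 15.6% lower. Ugp2, which makes UDP-glucose, was at 61.6 to 91.3 FPKM in SG and 168 to 231 FPKM in FG. It fell in SG with a fold change of -1.46 (SE 0.139, adjusted p = 0.000683). Ugdh, which oxidises UDP-glucose to UDP-glucuronic acid, was at 35.1 to 49.6 FPKM in SG and 50.4 to 84.8 FPKM in FG. Its groups did not overlap, but the fold change of -0.56 was not called (adjusted p = 0.0687). Papss2, the main PAPS synthase of liver, was at 120.5, 92.9, 97.0 and 117 FPKM in the SG libraries, against 49.99, 64.6, 62.5 and 53.6 FPKM in the FG libraries. It rose in SG with a fold change of 0.88 (SE 0.122, adjusted p = 0.00348). Its paralogue Papss1 was far less abundant, at 2.05 to 3.68 FPKM in SG and 4.02 to 4.89 FPKM in FG, and fell (adjusted p = 0.0209), but this call did not hold when FG 93, FG 95, SG 103 or SG 105 was left out (adjusted p up to 0.0607), after median-ratio scaling (0.0644), after quantile normalization (0.092) or with no filter on low values (0.0575). Bpnt1, which clears the PAP left by sulfation, was called lower (fold change -0.34, adjusted p = 0.0483), but the call was lost in 7 of the 8 fits without 1 library, held without SG 101, and had an adjusted p of 0.276 after median-ratio scaling. The carriers Slc35d1 and Slc35b2, which bring UDP-glucuronic acid and PAPS across membranes, were not called (adjusted p = 0.112 and 0.418).

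Conjugates are split again by glucuronidases and sulfatases. Of a list of 5 genes of these kinds, 5 were tested, 2 were called lower and none higher, against 15.6% and 3.73% of all tested genes. The steroid sulfatase Sts was not called (fold change -0.23, adjusted p = 0.173), nor was the sulfatase Arsb (fold change -0.26, adjusted p = 0.109). The groups overlapped for both. Whether the called sulfatases act on conjugates made by Sult enzymes was not tested. Arsa, a lysosomal sulfatase, was at 9.27 to 14.0 FPKM in SG and 25.98 to 30.05 FPKM in FG, and fell with a fold change of -1.20 (adjusted p = 0.000993). Arsg, a related sulfatase, fell by 0.37 on the log2 scale (adjusted p = 0.0266), a call lost after median-ratio scaling (adjusted p = 0.0989) and in 6 of the 8 fits without 1 library (adjusted p up to 0.076, all but those without SG 101 and SG 103). The glucuronidase Gusb did not overlap, at 2.96 to 3.56 FPKM in SG and 3.79 to 4.83 FPKM in FG, and was not called (adjusted p = 0.054). It was called in 5 of the alternatives, among them those without FG 94 (0.046) and without SG 101 (0.0498), with adjusted p down to 0.0223. Of 9 export and uptake carriers 8 were tested and 1 was called, against 19.4% of all tested genes. Slco1a4, an organic anion uptake carrier, rose to 21.8 to 49.6 FPKM in SG, against 6.43 to 10.9 FPKM in FG (fold change 1.63, adjusted p = 0.00743). The conjugate exporters Abcc2 (fold change 0.03, adjusted p = 0.884) and Abcc3 (fold change -0.27, adjusted p = 0.22) were not called.

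**Figure D5:**
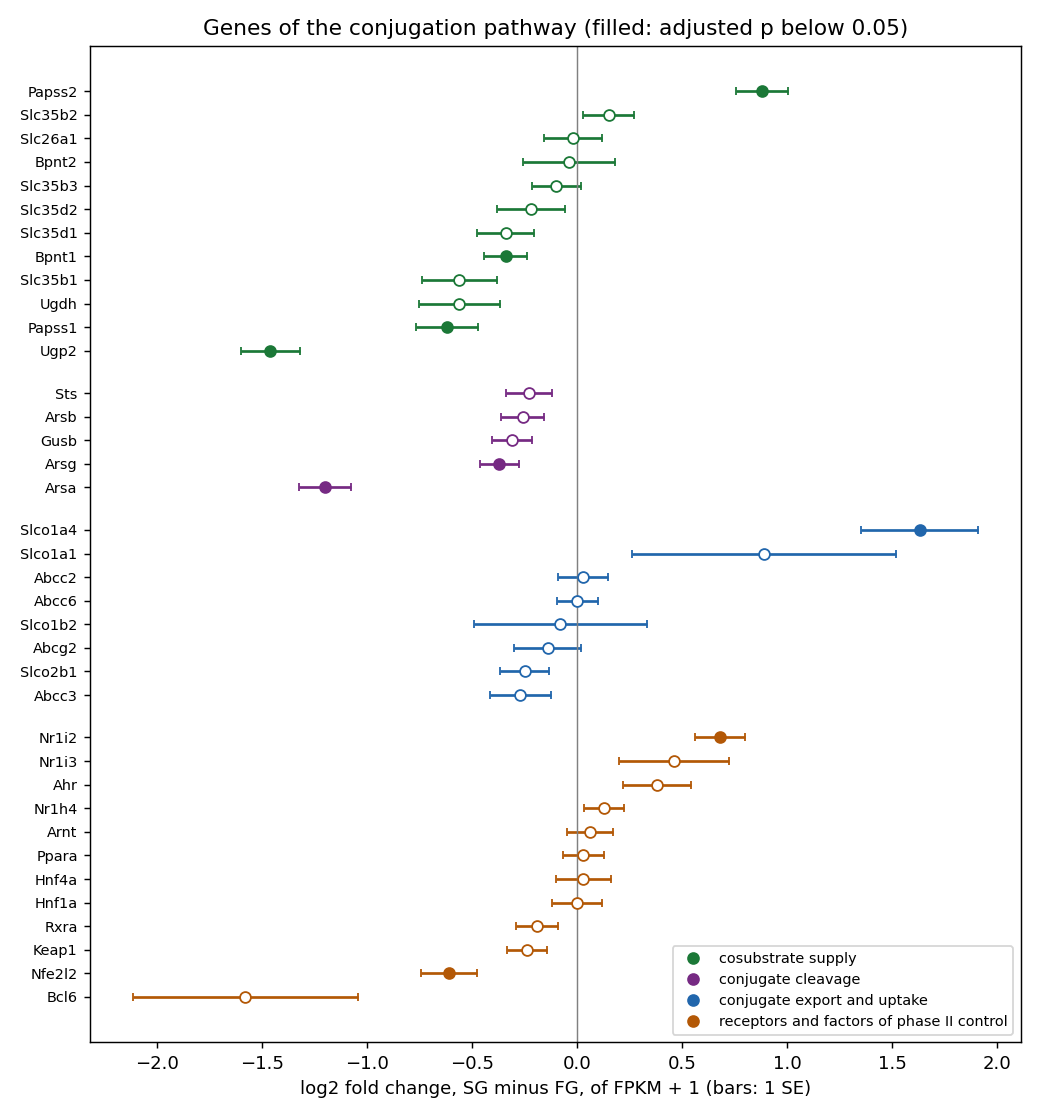
Log2 fold change of FPKM + 1, SG minus FG, with 1 SE for the tested genes of 4 lists around conjugation, from top to bottom cosubstrate supply in green, conjugate cleavage in purple, export and uptake in blue, and receptors and factors in orange. Filled circles mark an adjusted p below 0.05. Papss2, Slco1a4 and Nr1i2 are filled on the right, and Ugp2, Papss1, Bpnt1, Arsa, Arsg and Nfe2l2 are filled on the left.

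Of 13 receptors and factors known to act on conjugation genes, 12 were tested, 1 was called higher and 1 lower. These 16.7% called stood against 19.4% of all tested genes. Nr1i2, which encodes PXR, was at 36.9, 44.8, 48.2 and 50.6 FPKM in the SG libraries, against 24.3, 28.9, 27.3 and 30.4 FPKM in the FG libraries. It rose in SG with a fold change of 0.68 (SE 0.117, adjusted p = 0.00753). Nfe2l2, which encodes NRF2, was at 18.4 to 24.3 FPKM in SG and 26.5 to 37.0 FPKM in FG. It fell with a fold change of -0.61 (adjusted p = 0.0178), a call lost without FG 93 (adjusted p = 0.0543) and after median-ratio scaling (adjusted p = 0.0509). Nr1i3, which encodes CAR, Ahr and Ppara were not called (adjusted p = 0.243, 0.127 and 0.846).

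Of 14 classical targets of these receptors 13 were tested, 3 were called higher and 1 lower, against 3.73% and 15.6% of all tested genes. Cyp2b10, a CAR and PXR target, was at 6.14, 2.08, 3.71 and 8.78 FPKM in the SG libraries, against 0.306, 0.655, 0.951 and 0.715 FPKM in the FG libraries (fold change 1.78, adjusted p = 0.00825). Por, the electron donor of cytochromes P450, was at 296 to 465 FPKM in SG and 196 to 234 FPKM in FG (fold change 0.89, adjusted p = 0.00557). Both rose without overlap. Cyp4a10, a PPARA target, was called higher (fold change 2.01, adjusted p = 0.0315), a call that held without SG 101 or FG 95 and was lost in the other 6 fits without 1 library (adjusted p up to 0.0803). Srxn1, an NRF2 target, was at 6.25 to 9.35 FPKM in SG and 12.1 to 23.96 FPKM in FG, and fell (fold change -1.05, adjusted p = 0.0141). Cyp3a11, a PXR target, was at 1442 to 2339 FPKM in SG and 1138 to 1745 FPKM in FG, and its fold change of 0.59 was not called (adjusted p = 0.0645) but had an adjusted p of 0.0151 without SG 101 and of 0.0368 after median-ratio scaling. Cyp1a2, an AHR target, and Nqo1, an NRF2 and AHR target, were not called (adjusted p = 0.144 and 0.124).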

How the data were processed

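RNA of 8 mouse liver libraries, 4 SG and 4 FG, was analysed from the FPKM table that the authors deposited, with 21358 genes and 0 columns left unmatched to a sample. Per the labels' protocols, mRNA was enriched from TRIzol-isolated RNA and sequenced as Illumina read pairs. The submitters' processing notes name the tools HISAT2, fastp, DESeq2 and HTSeq and the builds mm10 and GRCm38. Versions, annotation, strand setting and the treatment of shared exons are not given in the sources used here. Without strand, overlapping genes cannot be told apart.

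Tests used log2(FPKM + 1) with a pseudocount of 1, limma 3.58.1 in R 4.3.3 (empirical Bayes with a mean-variance trend, both groups, no covariates) and Benjamini-Hochberg adjustment over 9867 genes with FPKM of at least 1 in at least 4 libraries. This scale understates changes of low genes. The fit was first tested on simulated data. Exact two-sided permutation tests used all 70 assignments. Whole fragment counts, within 0.02 fragments, were recovered from the FPKM steps for 99.995% of genes, and their sums fell short of the totals by at most 0.0355%. They gave depth and a limma voom alternative. Depth limits low genes most, and counting precision is not the spread between libraries. The 16 alternatives were 8 other settings and 8 fits without 1 library each.

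Members, gene lists and rules were chosen with earlier results of these data known. Every tested member is named, and of each further list up to 4 called genes with the smallest p plus a stated set of key genes. Promoter windows are RefSeq's, and identities were computed with Biopython 1.88 on GENCODE transcripts. Figures were drawn with matplotlib 3.10.9 in Python 3.11.15.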

Additional observations from a re-analysis of the deposited data

Results flagged for a closer look

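In 5 of the 42 groups of 4 libraries formed by the tested members, 1 library lay further from the rest than Dixon's test allows at its 95% critical value, where chance gives about 1 group in 20. All 5 were Ugt2 genes. Ugt2b1 was at 263 FPKM in SG 103, above 174 to 188 FPKM in the other SG libraries. Ugt2b38 was at 10.9 FPKM in SG 103, above 4.05 to 4.55 FPKM in the other SG libraries. Ugt2b35 was at 25.2 FPKM in SG 105, below 48.6 to 51.1 FPKM in the other SG libraries. Ugt2b36 was at 465 FPKM in FG 93, above 361 to 376 FPKM in the other FG libraries, and Ugt2b5 was at 582 FPKM in FG 93, above 387 to 399 FPKM in the other FG libraries. The call for Ugt2b36 held without FG 93, and that for Ugt2b5 was lost (adjusted p = 0.0605). Ugt2b5 was high in FG 93 and Ugt2b38 in SG 103. These genes share part of their sequence, and whether fragments were exchanged between them was not tested.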

How the results depend on the processing

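No paired analysis was possible because the groups share no replicate number. The count of all called genes, 1912, became 1133 with no filter on low values, 1044 after median-ratio scaling and 1078 after quantile normalization, and ranged from 834 to 2363 when 1 library was left out. Among the members, 3 calls higher and 4 lower became 5 higher and 6 lower with estimated library weights, and ranged from 2 to 4 higher and 3 to 5 lower without 1 library. The members' median of -0.07 was 0.10 after median-ratio scaling and ranged from -0.13 to 0.05 without 1 library. Of the 7 called members, 5 kept the call in every alternative that tested them. The exceptions were Sult5a1 (no filter, without FG 93, without SG 105) and Ugt2b5 (no filter, without FG 93). Of 14 uncalled members, 4 were called in at least 1 alternative, Sult2a7, Ugt1a5, Ugt1a6b and Ugt2a3, and with library weights all 4 were. No called member changed sign in any alternative. The cause of these changes was not tested. Depth limits Sult2a7 and the members below the filter most.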
